A study of Homo sapiens with 12 samples.

Results

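The 10 genes described here are SMAD1, SMAD2, SMAD3, SMAD4, SMAD5, SMAD6, SMAD7, ID1, ID2 and ID3. They were chosen by name, 7 SMAD genes and 3 ID genes of TGF-beta and BMP signalling, out of 60609 genes in the count files, and all 10 were detected in all 6 RNA-seq libraries, with at least 12 counts in each. K562 cells, an established line from a patient's chronic myeloid leukemia (blast crisis), were exposed for 48 h either to the solvent DMSO (3 libraries) or to 10 μM FT671 (3 libraries), a small molecule that inhibits the deubiquitinase USP7. The comparison asks how transcript levels differ after USP7 inhibition. All the libraries came from this 1 line, with no other genetic change named in the labels. The 6 ChIP-seq samples of the series, taken at 24 h, were not analysed here.

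SMAD proteins carry signals of the TGF-beta family from receptors at the cell surface to the nucleus. SMAD1 and SMAD5 are phosphorylated by receptors for BMPs, SMAD2 and SMAD3 by receptors for TGF-beta and activin, and both pairs join SMAD4 before they bind DNA. SMAD6 and SMAD7 hold the pathway back, and both are themselves induced by it. ID1, ID2 and ID3 are helix-loop-helix proteins without a DNA-binding region that capture basic helix-loop-helix transcription factors, and they are classical genes switched on by BMP and SMAD1 or SMAD5. In blood cells ID proteins are known as regulators of the balance between growth and differentiation.

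Known SMAD-bound DNA elements were looked for upstream of the 10 genes, because the genes of the inhibitors and of the ID proteins are textbook SMAD targets. Both strands of the 5 kb before each gene start in GENCODE release 44 (hg38) were searched. The composite element GGCGNCNNNNNGTCT, a relaxed form of the BMP response element that joins a GC-rich stretch to a GTCT stretch, was found upstream of ID1, ID2 and ID3 and of none of the 7 SMAD genes. The palindromic SMAD element GTCTAGAC was found upstream of SMAD6 and SMAD7. These 5 stretches are shown 5′ to 3′ on the strand that reads the element, with the element in capitals.
ID1: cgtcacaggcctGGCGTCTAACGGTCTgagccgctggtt
ID2: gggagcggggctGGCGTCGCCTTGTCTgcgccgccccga
ID3: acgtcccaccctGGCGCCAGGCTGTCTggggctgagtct
SMAD6: agccgccaaagtGTCTAGACtggc
SMAD7: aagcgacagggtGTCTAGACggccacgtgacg

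The ID1 stretch lies at chr20:31604366-31604404 on the plus strand, and its element starts at -905 from the gene start, inside an exon of the antisense gene ENSG00000289875. The ID2 stretch lies at chr2:8677081-8677119 on the minus strand, at -1752 from the GENCODE start of ID2 and at -4963 from the nearest RefSeq start, in an intron of ID2-AS1. The ID3 stretch lies at chr1:23562437-23562475 on the minus strand, at -2962, between annotated genes. The SMAD6 stretch lies at chr15:66702212-66702235 on the plus strand, with the element at -12, directly before the annotated start. The SMAD7 stretch lies at chr18:48952206-48952237 on the minus strand, at -1260, between annotated genes. Of the 20046 protein-coding genes searched in this way, 274 (1.37%) held the composite element and 2.80% the palindrome. The narrower composite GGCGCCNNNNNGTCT was held by 85 genes (0.424%) and, among the 10, by ID3. In the RefSeq promoters (GRCh38.p14), windows of 300 bases around gene starts, the palindrome was in 71 of 35116 windows (0.202%), among them 1 of SMAD6, and no window of the 10 genes held the composite, which 0.350% of all windows did. These matches describe the letters alone. No binding was measured, and the elements were chosen with the expression values known.

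The depth ranged from 4555220 to 14250500 counts per library, so that 3 counts, taken as the smallest detectable amount, correspond to 0.211 to 0.659 CPM, the unit of counts scaled to library size used throughout. DMSO replicate 3 stood apart from the other DMSO libraries on the second principal component (-25.1, against 12.1 and 14.9). The FT671 libraries were also spread on it, with replicate 1 at 16.1, against -10.9 and -7.27. Genes that mark K562 as an erythroid-like line summed to between 1110 and 1151 CPM in DMSO and between 1048 and 1081 CPM in FT671, with 7 of 8 tested. For other blood and stromal cells, the defining genes CD2, MS4A1, COL3A1 and PDGFRA were at 0 counts and CD14 at 2 counts over all libraries. The monocyte list (1 of 4 genes tested) summed to between 51.3 and 54.2 CPM in DMSO and between 72.2 and 76.0 CPM in FT671, nearly all of it LYZ. The T cell list (1 of 4 tested) summed to between 17.0 and 20.5 and between 24.0 and 29.3 CPM, nearly all of it CD3D. The B cell and fibroblast lists (1 and 0 of 4 tested) stayed under 4 CPM in every library. The part of these differences in the values of the SMAD and ID genes was not tested. In bulk RNA, fewer cells with a transcript and less of it per cell cannot be told apart.

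FT671-treated cells had less RNA of 6 of the 10 genes: SMAD3, SMAD4, SMAD7, ID1, ID2 and ID3. ID3 had the largest fall of the 10, and ID1, ID2, SMAD7 and SMAD3 each fell to under 50% of the DMSO level. SMAD1, SMAD5, SMAD2 and SMAD6 did not pass the test, and none of the 10 genes rose. At an adjusted p-value of 0.05 (edgeR's quasi-likelihood test over 13895 genes, Benjamini-Hochberg), 26.5% of all genes tested were lower and 23.6% were higher in FT671, against 6 and 0 of the 10. At 1e-05, the threshold in the study's methods, 4.13% of all genes were lower, against 3 of the 10 (SMAD3, ID2 and ID3). That count was 4 with DESeq2's Wald test, which added SMAD7 (adjusted p = 8.54e-06), 5 without DMSO replicate 3 and 1 (SMAD3) when any other single library was left out. Every FT671 library lay under every DMSO library for 6 of the 10 and for 30.3% of all genes. The median log2 fold change was -0.69 over the 10 genes and -0.010 over all genes tested. The 10 genes were chosen with earlier results of these data known, so these comparisons with all genes are descriptions alone. The study speaks of independent experiments, but the p-values measure no more than the spread between these libraries.

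Among the SMADs that receptors phosphorylate, SMAD3 fell while SMAD2, its partner in TGF-beta signalling, stayed within the spread of its libraries. SMAD3 (ENSG00000166949, chromosome 15, 67063763 to 67195173, plus strand) was at 87.3, 89.1 and 90.6 CPM in DMSO and at 38.4, 33.7 and 37.0 CPM in FT671. The groups were far apart and each was tight, with the highest FT671 library well under the lowest DMSO library. The mean went from 89.0 ± 1.63 to 36.4 ± 2.40 CPM (SD, n = 3), 40.9% of the DMSO level, and the log2 fold change was -1.29 ± 0.0878 (SE, 95% interval from -1.48 to -1.10, adjusted p = 1.14e-07 by edgeR). Of all genes tested, 3.32% had a lower log2 fold change. SMAD3 was the 1 gene of the 10 that stayed past 1e-05 in all 14 alternatives, with log2 fold changes from -1.33 to -1.07.

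SMAD2 (ENSG00000175387, chromosome 18, 47808957 to 47931146, minus strand) was at 71.7, 64.6 and 82.4 CPM in DMSO and at 72.2, 74.5 and 69.6 CPM in FT671. All the FT671 libraries lay within the DMSO range. The log2 fold change was -0.0088 ± 0.0959 (SE, adjusted p = 0.948 by edgeR), and its 95% interval, from -0.21 to 0.20, does not reach the change of SMAD3. Its sign turned with a correction for gene length, to 0.16. The count of SMAD3 per count of SMAD2 in the same library, which needs no scaling between libraries, was 1.22, 1.38 and 1.10 in DMSO and 0.532, 0.453 and 0.531 in FT671. SMAD3 thus had more counts than SMAD2 in each DMSO library and fewer in each FT671 library. The ratio averaged 1.23 ± 0.141 and 0.506 ± 0.0457 (SD), with an exact two-sided permutation p = 0.1, the smallest that 3 against 3 libraries can give (0.233 adjusted over the 7 ratios computed).

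SMAD5 was the more abundant of the BMP-activated SMADs, and neither SMAD5 nor SMAD1 passed the test. SMAD5 (ENSG00000113658, chromosome 5, 136132845 to 136188747, plus strand) was at 35.2, 30.7 and 45.7 CPM in DMSO and at 33.5, 37.9 and 35.7 CPM in FT671. DMSO replicate 3, which stood apart from the other DMSO libraries, was the highest of the 6 and DMSO replicate 2 the lowest, with all the FT671 values between them. Its log2 fold change was -0.030 ± 0.133 (SE, 95% interval from -0.32 to 0.25, adjusted p = 0.867 by edgeR), and it was 0.20 with the length correction. SMAD1 (ENSG00000170365, chromosome 4, 145481194 to 145559176, plus strand) rested on 12 to 55 counts per library, at 3.81, 3.30 and 4.44 CPM in DMSO and 4.22, 2.16 and 3.22 CPM in FT671. These groups overlapped, and the 95% interval of the log2 fold change (-0.25 ± 0.258 SE, adjusted p = 0.439) ran from -0.81 to 0.30, so that at this depth a moderate fall could not be told from no change. The third gene of this class, SMAD9, had 4 counts over all libraries, 3 of them in FT671 replicate 3, and did not pass the filter on low counts.

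SMAD4, the partner shared by both branches, fell less than the other called genes. SMAD4 (ENSG00000141646, chromosome 18, 51028528 to 51085045, plus strand) was at 54.9, 55.3 and 49.2 CPM in DMSO and at 42.4, 43.8 and 39.1 CPM in FT671. The lowest DMSO library, replicate 3, was still above every FT671 library. The mean went from 53.1 ± 3.44 to 41.8 ± 2.46 CPM (SD), 77.9% of DMSO, with a log2 fold change of -0.36 ± 0.0962 (SE, 95% interval from -0.57 to -0.15, adjusted p = 0.00643 by edgeR). The call was lost with the length correction (-0.14, adjusted p = 0.303) and without FT671 replicate 3 (-0.30, adjusted p = 0.0503).

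Of the inhibitory SMADs, SMAD7, which acts on the receptors of both branches, fell, and SMAD6, which acts mainly on the BMP branch, did not pass the test. SMAD7 (ENSG00000101665, chromosome 18, 48919853 to 48950965, minus strand) was at 15.5, 16.7 and 14.8 CPM in DMSO and at 8.22, 7.22 and 6.97 CPM in FT671. No FT671 library came near the DMSO range. The mean went from 15.7 ± 0.950 to 7.47 ± 0.660 CPM (SD), a 2.14-fold lower level, and the log2 fold change was -1.10 ± 0.145 (SE, 95% interval from -1.41 to -0.78, adjusted p = 3.18e-05 by edgeR).

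SMAD6 (ENSG00000137834, chromosome 15, 66702236 to 66782849, plus strand), on the same chromosome as SMAD3, was at 50.4, 52.4 and 44.2 CPM in DMSO and at 48.4, 55.0 and 48.4 CPM in FT671. The groups overlapped. Its log2 fold change of 0.035 ± 0.0999 (SE, adjusted p = 0.794) had a 95% interval from -0.18 to 0.25. The counts of SMAD7 per count of SMAD6 were 0.308, 0.318 and 0.335 in DMSO and 0.170, 0.131 and 0.144 in FT671, a fall in each library (exact two-sided permutation p = 0.1, adjusted 0.233). SMAD7 per count of SMAD3, both of them called, was 0.178, 0.187 and 0.163 in DMSO and 0.214, 0.214 and 0.188 in FT671. These values lay close together, although each FT671 library was above each DMSO library (exact two-sided permutation p = 0.1, adjusted 0.233).

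**Figure D1:**
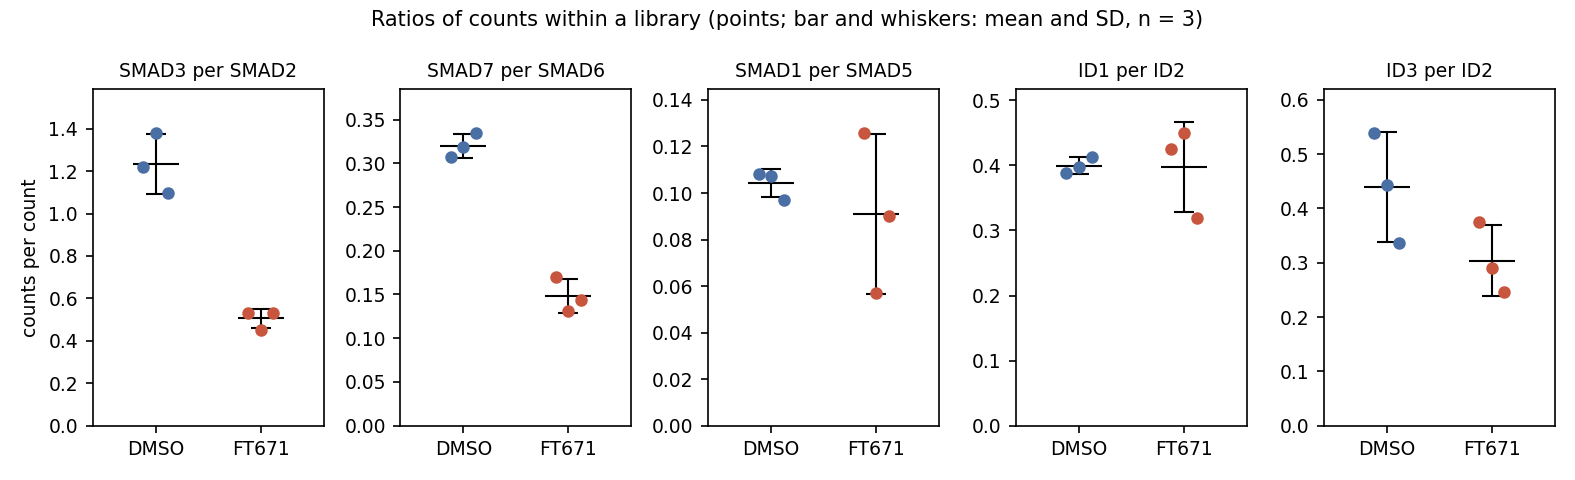
Counts of one gene per count of another within the same library (y axis, from 0) for the 3 DMSO and 3 FT671 libraries (points), with the mean and SD (n = 3). SMAD3 per SMAD2 and SMAD7 per SMAD6 are lower in each FT671 library, while SMAD1 per SMAD5, ID1 per ID2 and ID3 per ID2 overlap between the groups.

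All 3 ID genes that were detected fell. ID2 (ENSG00000115738, chromosome 2, 8678845 to 8684461, plus strand), the most abundant, was at 35.5, 38.3 and 40.7 CPM in DMSO and at 17.8, 18.0 and 19.6 CPM in FT671. Every FT671 library was well under every DMSO library. The mean went from 38.1 ± 2.61 to 18.5 ± 0.973 CPM (SD), 49.1% of DMSO, with a log2 fold change of -1.03 ± 0.109 (SE, 95% interval from -1.26 to -0.79, adjusted p = 4.65e-06 by edgeR).

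ID1 (ENSG00000125968, chromosome 20, 31605283 to 31606515, plus strand) was at 13.8, 15.2 and 16.8 CPM in DMSO and at 7.55, 8.12 and 6.26 CPM in FT671. Here too the groups were separate. The level was 15.3 ± 1.52 against 7.31 ± 0.955 CPM (SD), 2.11-fold lower, and the log2 fold change was -1.08 ± 0.159 (SE, 95% interval from -1.42 to -0.74, adjusted p = 8.10e-05 by edgeR).

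ID3 (ENSG00000117318, chromosome 1, 23557926 to 23559501, minus strand) was at 19.1, 16.9 and 13.7 CPM in DMSO and at 6.66, 5.23 and 4.83 CPM in FT671. The DMSO libraries spread more widely than those of ID1 and ID2, with replicate 3 lowest, yet the lowest of them was above all the FT671 libraries. The mean went from 16.6 ± 2.74 to 5.57 ± 0.965 CPM (SD), 31.9% of DMSO, with a log2 fold change of -1.65 ± 0.180 (SE, 95% interval from -2.04 to -1.27, adjusted p = 5.59e-06 by edgeR). Of all genes tested, 1.26% had a lower log2 fold change. ID4, the remaining gene of the family, had 0 counts in all libraries.

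Summed over ID1, ID2 and ID3, the level was 68.3, 70.4 and 71.2 CPM in DMSO and 32.0, 31.4 and 30.7 CPM in FT671. The sum varied less between libraries of a group than its parts did. ID2 made up 51.9%, 54.4% and 57.1% of the ID counts in DMSO and 55.6%, 57.5% and 63.8% in FT671, and ID3 made up 28.0%, 24.1% and 19.2% and then 20.8%, 16.7% and 15.7%. These shares overlapped between the groups. The counts of ID1 per count of ID2 were 0.400 ± 0.0127 in DMSO and 0.398 ± 0.0692 in FT671 (SD, exact two-sided permutation p = 1). Those of ID3 per count of ID2 were 0.439 ± 0.101 and 0.304 ± 0.0653 (exact two-sided permutation p = 0.2, adjusted 0.28), a test that in 3 against 3 libraries could not go below 0.1.

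**Figure D2:**
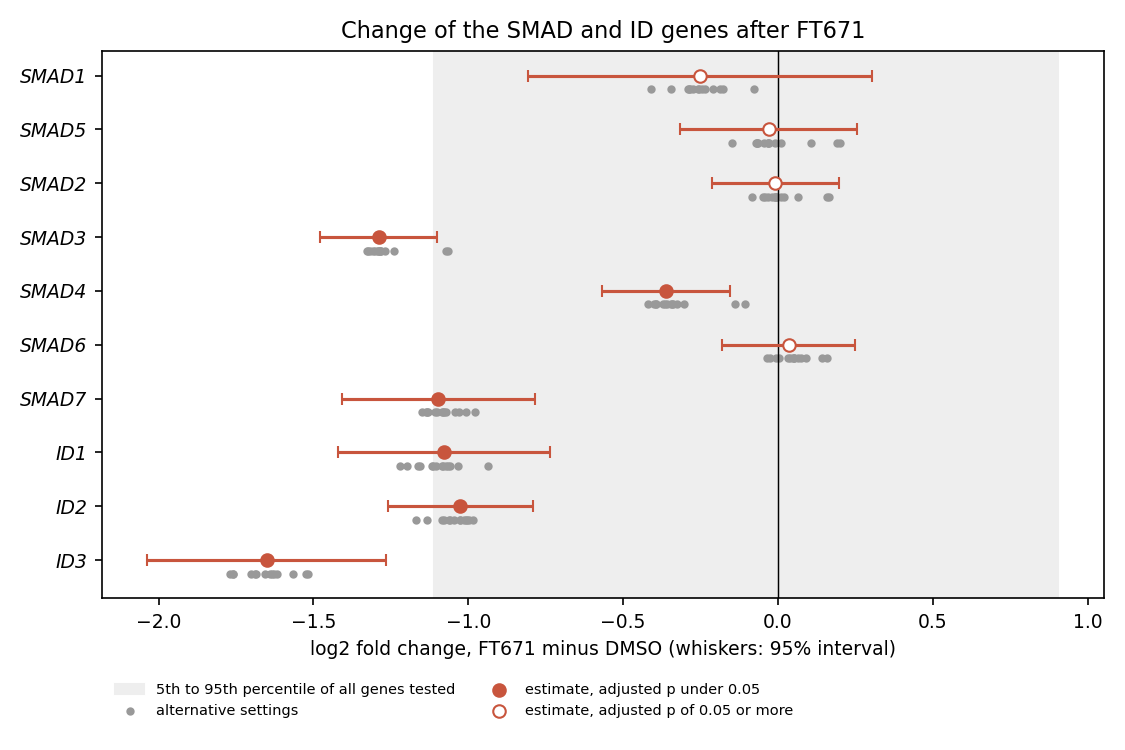
Log2 fold change of FT671 against DMSO for the 10 SMAD and ID genes (x axis), with 95% intervals (whiskers), the values under the 14 alternatives (small grey points) and the 5th to 95th percentile of all genes tested (grey band, -1.11 to 0.91). SMAD3 and ID3 lie beyond the band, SMAD7, ID1 and ID2 near its lower edge, and SMAD4 inside it.

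Levels of different genes were compared in CPM per kilobase of all annotated exons. In DMSO, ordered by their mean, the medians of these levels were 17.3 for ID2, 12.3 for ID1, 11.3 for ID3, 8.90 for SMAD3, 5.89 for SMAD6, 3.89 for SMAD5, 3.93 for SMAD7, 2.80 for SMAD4, 1.97 for SMAD2 and 0.537 for SMAD1. Neighbours in this order did not overlap over the 3 libraries, except ID1 with ID3 and SMAD5 with SMAD7. In FT671 the medians of the called genes were 8.15 for ID2, 6.12 for ID1, 3.50 for ID3, 3.70 for SMAD3, 1.83 for SMAD7 and 2.16 for SMAD4. Ordered by the FT671 mean, ID2 and ID1 remained the highest and SMAD6 (median 5.66) moved up to rank 3. SMAD3 went to rank 6, and SMAD7 to rank 9, below SMAD2 (median 1.98). Several ranges over the FT671 libraries overlapped, so these ranks do not all differ beyond their spread. ID1 (5.07 to 6.58) overlapped SMAD6 (5.65 to 6.43), and SMAD3 (3.37 to 3.84) overlapped ID3 (3.23 to 4.45). SMAD7 (1.77 to 2.08) overlapped SMAD2 (1.91 to 2.05). The order depends on the length used: per base of the canonical transcript, SMAD2 stayed at rank 9 in DMSO and SMAD4 went from rank 8 to rank 6.

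Neighbours that share exonic bases with the 10 genes could add counts to them or take reads from them. The strand setting of the counting is not given in the sources used here. SMAD1-AS1 had 21 counts over the 6 libraries against 182 for SMAD1, SMAD5-AS1 had 25 against 1851 for SMAD5, and ID2-AS1 had 75 against 1549 for ID2. The antisense gene ENSG00000259347 had 25 counts against 3498 for SMAD3, and ENSG00000267699, on the strand of SMAD4, had 0. ID2 and SMAD3 had far more counts than the genes they overlap, but the effect of shared reads was not tested.

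Over the 6 libraries, the log2 CPM of SMAD3 was most like that of NCOA3 (Pearson's r = 0.9996), BTBD7 (0.9994) and TAL1 (0.9991), and that of ID2 most like ENSG00000255114 (0.9993), PRF1 (0.9992) and FAM168B (0.9992). These points share the 2 treatment groups, and 2559 genes for SMAD3 and 2473 for ID2 had r over 0.9, so a high r was common. NCOA3 encodes a nuclear receptor coactivator and fell by 1.30 on the log2 scale, PRF1 encodes the cytolytic protein perforin and fell by 1.34, and TAL1 encodes a basic helix-loop-helix factor of blood formation and fell by 0.94.

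The other genes of the pathway were counted in 8 groups by role, and with SMAD9 and ID4 they number 165, of which 99 were tested. Of these, 46 fell, 14 rose and 39 did not pass at 0.05, with a median log2 fold change of -0.25. Over all genes tested, 26.5% were lower and 23.6% higher, against which the counts of each group are to be read. The lists of these groups, too, were chosen with earlier results of these data known. With the length correction, 37 of the pathway genes fell and 18 rose. The balance over all genes tested then turned, from 3687 lower and 3276 higher to 3304 lower and 3833 higher. With a library left out, between 40 and 52 of the pathway genes fell. The receptors were the group with the lowest median, -0.61. Of 8 tested, 7 fell and none rose, including the activin receptor ACVR1B (from 26.0 ± 2.84 to 11.4 ± 0.434 CPM, log2 fold change -1.20, adjusted p = 5.56e-06) and the BMP receptors BMPR1A (-0.95, adjusted p = 8.04e-04) and BMPR2 (-0.79, adjusted p = 2.35e-04). The tested receptor that did not pass was ACVR2A, with -0.25 (adjusted p = 0.530), named after its value was seen. Of the 12 receptors listed, the rest did not pass the filter on low counts. Among these was the TGF-beta receptor TGFBR2, with 11 counts over all libraries, also named after its value was seen. Among 5 co-receptors tested, 2 fell: TGFBR3, or betaglycan (-0.39, adjusted p = 0.00107), and NEO1 (-0.54, adjusted p = 0.00567). The call of NEO1 was lost with the length correction (-0.31, adjusted p = 0.0581). It was kept with the length correction and a replicate block together (-0.34, adjusted p = 0.0265 by edgeR).

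Of the ligands, 9 were tested, 3 fell and 2 rose. AMH fell by 1.47 on the log2 scale and the activin subunit INHBE by 0.95, whereas GDF15, a stress-induced ligand, rose from 508.9 ± 62.5 to 912.3 ± 31.7 CPM (log2 fold change 0.84, adjusted p = 3.07e-06). TGFB1, the other ligand that rose, went from 347.8 ± 9.72 to 504.9 ± 13.8 CPM (0.54, adjusted p = 1.52e-05). It is named after its value was seen. Of 10 extracellular regulators tested, 5 fell and 1 rose. The genes with the largest falls were LTBP4, which holds latent TGF-beta in the matrix (-0.83), the protease FURIN, which cleaves the precursors (-0.83), and NRROS, which holds latent TGF-beta at the cell surface (-0.70).

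Inside the cell, 29 inhibitors and ubiquitin regulators were tested, of which 13 fell and 5 rose. SKI, a repressor that binds SMAD complexes, had the largest fall of any pathway gene, from 152.4, 348.8 and 163.0 CPM in DMSO to 44.2, 44.2 and 45.7 CPM in FT671 (log2 fold change -2.31, adjusted p = 5.49e-06). DMSO replicate 2 was far above the other DMSO libraries, all of which were above FT671. The ubiquitin ligase SMURF1, which targets SMAD1 and SMAD5, fell by 1.18 on the log2 scale, and USP9X, a deubiquitinase of SMAD4, by 1.10. Of 16 adaptors and nuclear cofactors, 7 fell and 4 rose, with AXIN1 at -1.08, RBL1 at -0.74 and ZEB1, a repressor that binds SMADs, at 0.66.

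Of 15 other target genes tested, 5 fell and 2 rose, with a median of -0.084, and the share that fell was near the 26.5% of all genes. HEY1, a transcriptional repressor, rose from 24.6 ± 0.0525 to 59.7 ± 2.87 CPM (log2 fold change 1.27, adjusted p = 1.93e-07), while TSC22D3 fell by 1.19 and UNC5B by 1.05 on the log2 scale. Of 7 tested genes of basic helix-loop-helix factors and their relatives, the class to which the partners of ID proteins belong, 4 fell and none rose, among them TAL1 (from 139.6 ± 4.17 to 72.6 ± 3.83 CPM, -0.94), TCF4 (-0.81) and HES1 (-0.61).

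**Figure D3:**
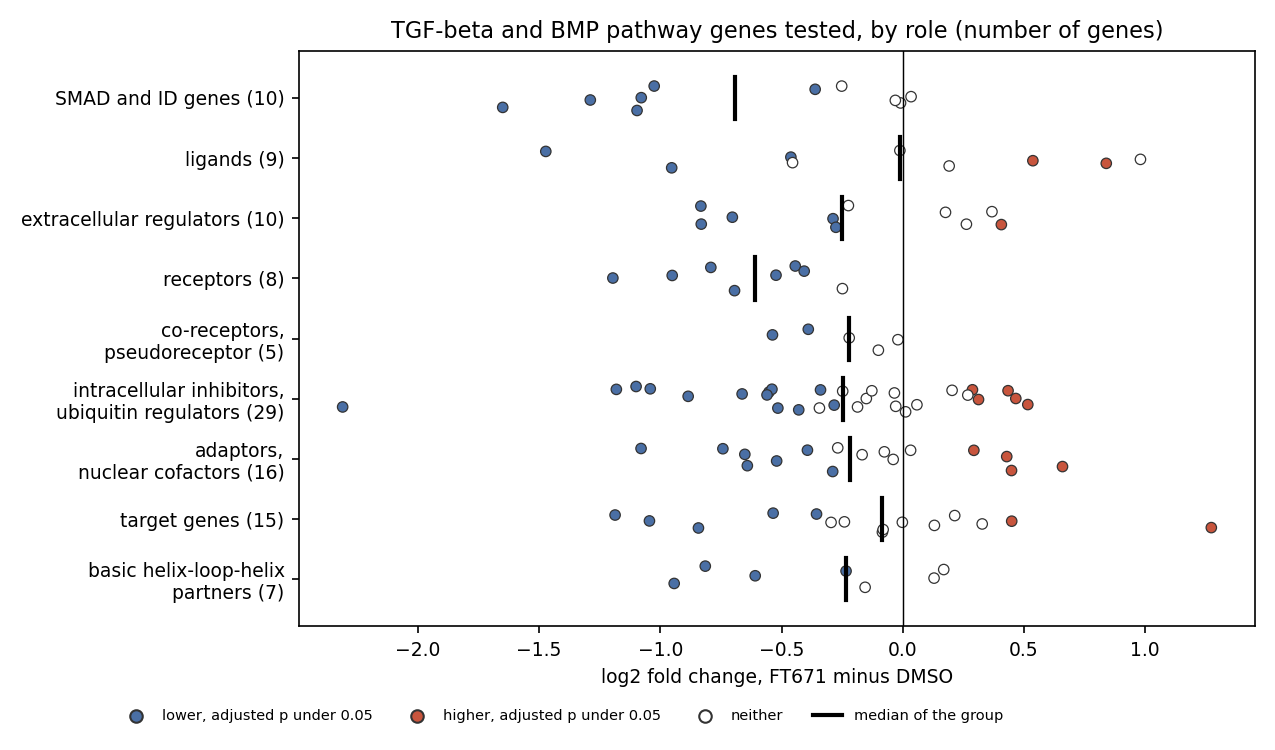
Log2 fold change of FT671 against DMSO (x axis) for each tested gene (points) of the SMAD and ID group and of the 8 other pathway groups, with the number of genes tested in brackets and the median as a vertical bar. The medians of the SMAD and ID genes (-0.69) and of the receptors (-0.61) lie lowest, and the ligands and target genes spread to both sides of 0.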

How the data were processed

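For each of 6 RNA-seq libraries (3 DMSO, 3 FT671) the authors deposited raw counts, 1 read count per gene, without normalization. Per the labels and the methods, libraries were made from total RNA by KAPA RNA HyperPrep after removal of ribosomal RNA (riboErase), they were sequenced paired-end on a NextSeq500, and reads were aligned to hg38 and counted by STAR in two-pass mode. The submitters' processing notes also name DESeq2. The STAR version, annotation release and strand setting are not given in the sources used here. Of 60609 genes, 60295 were matched to GENCODE release 44, and the 314 others held 0.0609% of the counts. Total counts were 4555220 to 14250500 per library. Replicates differed beyond counting error (chi-square per degree of freedom 2.07 to 8.73), so none was a copy.

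Groups came from the treatment labels. Genes were filtered with filterByExpr (13895 kept, all 10 SMAD and ID genes among them), scaled by TMM and compared by the quasi-likelihood test of edgeR 4.0.16 in R 4.3.3, with no covariates and Benjamini-Hochberg adjustment over all genes tested. CPM are on TMM-scaled library sizes, with means and SDs over 3 libraries, and log2 CPM used a prior count of 2. The standard error is the absolute log2 fold change divided by the square root of F. Ratios of counts within a library were tested by exact permutation. The 14 alternatives per gene were DESeq2 1.42.0 (Wald test), DESeq2 size factors, library totals alone, no filter, at least 10 counts in every library, a replicate block, a loess correction for gene length (span 0.3) with and without the block, and each library left out in turn. Levels per canonical transcript length were added after the data were seen. The main fit was also run on simulated counts, with an outcome that is not given here. The 10 genes and the lists were chosen with earlier results of these data known. Beside the 10 genes, SMAD9, ID4 and genes overlapping a member, up to 3 genes per pathway group were named, those with the largest change past 0.05 and a mean of at least 1 CPM, plus the 3 genes most like SMAD3 and ID2. ACVR2A, TGFBR2 and TGFB1 were named outside this rule.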

Additional observations from a re-analysis of the deposited data

How the results depend on the processing

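Of the 10 SMAD and ID genes, 6 were lower and 0 higher at 0.05. SMAD3, SMAD7, ID1, ID2 and ID3 kept their direction and call in all 14 alternatives, with log2 fold changes from -1.77 to -0.94, and SMAD4 in 11. With the replicate block 6 genes were lower, and 5 with the length correction and the block. The replicate numbers were not taken to pair the libraries, since deviations of same-numbered libraries correlated at 0.115, -0.0605 and 0.140, and the block alone changed no call. At 1e-05, 3 genes were lower, but 4 with DESeq2's Wald test, 5 without the filter on low counts and between 1 and 5 with a library left out: 5 without DMSO replicate 3, and 1 (SMAD3) without any other library. Genes that were not called changed sign: SMAD5 to 0.20 with the length correction, 0.19 with the correction and block, and between -0.15 and 0.11 with a library left out; SMAD2 to 0.011 with DESeq2 size factors, 0.16 with the length correction with or without the block, and between -0.084 and 0.066 with a library left out; SMAD6 to -0.0054 without the filter, and between -0.034 and 0.089 with a library left out. The cause was not tested. Ordered by canonical transcript length, 5 of the 10 levels kept their rank. At this depth, changes of SMAD1 inside its interval and levels of SMAD9 or ID4 under 3 counts per library could not be detected.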
